A study of Mus musculus with 36 samples.

Results

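Head-to-head gene pairs are neighbouring genes on opposite strands whose start sites face away from each other across a short stretch of DNA. In mouse stem cells, 720 such pairs were found. The start of the minus-strand gene lay 0 to 1000 bp upstream of the start of the plus-strand gene. Both genes had a mean of at least 1 CPM over 36 libraries. CPM is a count scaled to the total of its library, here adjusted by TMM factors, which correct for library composition. Scaled to the plain total, 722 pairs met the rule. A start was taken as the lowest start coordinate of a plus-strand gene or the highest end coordinate of a minus-strand gene in the deposited count table. The gene of lower mean CPM is called the minor gene of its pair and the other one the major gene. The pairs and the names minor and major were thus chosen by measured mean level over all 36 libraries, and the level gap between them is a description. The pairs held 1429 different genes (717 minor and 714 major, of which 2 were minor in one pair and major in another), all of which were among the 23501 genes tested, of 49671 in the table. They were set against 14603 genes of at least 1 CPM in no such pair and against the 16053 pairs of neighbouring genes in every orientation.

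At a divergent promoter, RNA polymerase II starts in both directions from one nucleosome-free region, and both genes can share its transcription factors, its CpG island and its H3K4 methylation. SETD1A is a histone methyltransferase that places H3K4 methylation near promoters, and BOD1L is a protein that associates with the SETD1A complex. MLL2, encoded by Kmt2b, is a related H3K4 methyltransferase that acts at many CpG island promoters.

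The libraries came from 3 conditional mouse lines named for their targeted genes, Bod1L, Setd1a and Mll2. Each line had knockout cells, whose titles name tamoxifen, and wild-type cells, whose titles do not, so genotype and tamoxifen cannot be told apart. Cells were naive embryonic stem cells in 2i medium (LIF, PD0325901 and CT99021), cycling embryonic stem cells in FCS medium (LIF and serum) or epiblast-like cells in EpiSC medium (Activin A and FGF2). Every line, genotype and medium had 2 libraries labelled as biological replicates. The sources used here name neither a Cre driver nor the number of clones, so p-values measure the spread between cultures of these lines. Cell type changed together with medium in EpiSC, and all 12 EpiSC libraries, with replicate 1 of Setd1a knockout in 2i, carry later run numbers.

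Libraries held 24.5 to 40.6 M gene counts, with a median of 32.6 M. Among the targeted genes, Bod1l lay at 33.6 to 62.2 CPM in its knockout libraries and at 166 to 345 CPM in wild type. Setd1a counts ran from 37.3 to 43.8 CPM in the libraries labelled Setd1a knockout and from 40.9 to 58.8 CPM in wild type (log2 fold change -0.38 ± 0.139, edgeR adjusted p = 0.0957, and 0.0285 with the replicate numbers as a block), and Kmt2b ran from 113 to 145 CPM in the libraries labelled Mll2 knockout against 89.6 to 210 CPM. In those 2 lines the genotype rests on the labels, since a gene-level count does not show whether a deleted exon is missing. The summed level of 9 naive markers was 2585 to 3832 CPM in 2i and 17.6 to 553 CPM in EpiSC, where the 4 Setd1a libraries held 363 to 553 CPM. The summed level of 6 fibroblast or feeder markers was 334 to 7147 CPM in EpiSC, and stood at 4813 CPM in Setd1a knockout EpiSC replicate 1 against 1565 CPM in wild-type replicate 1 and 334 and 343 CPM in the other 2 Setd1a EpiSC libraries. The summed level of 8 primed markers was 423 and 372 CPM in Setd1a knockout FCS against 1590 and 573 CPM in wild type, and 178 and 563 CPM in Setd1a knockout EpiSC against 449 and 720 CPM. Their part in the Setd1a results was not tested. The 2 Mll2 wild-type libraries in 2i stood apart from each other in the balance of pairs, and Mll2 counts are also given without replicate 1 of them. Kmt2b lay at 183 CPM in replicate 1 of these and at 89.6 CPM in replicate 2. The summed level of 3 general pluripotency markers was 1284 CPM in replicate 1 and 2158 CPM in replicate 2, the highest of all 2i libraries. Which of the 2 libraries is unusual was not tested.

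The stretches between the starts are shown for 3 sets of pairs on which the results turn. For each, the bases between the annotated starts of the 2 genes are printed 5′ to 3′ in the direction of the minor gene, from RefSeq promoter windows on GRCm38.p6, the build of the counts. Capitals mark matches on either strand to 8 searched motifs. They were CCGGAAG for ETS factors, GCGCATGCG for NRF1, AAGATGGCG for YY1 and GGGCGG for the GC box. The others were CCAAT for the CCAAT box, TGACGTCA for the CRE, ACTACAA for ZNF143 and TATAAA for the TATA box. A match is a string of letters, not a shown binding site. First come 3 pairs whose minor gene fell in Setd1a knockout cells while the major gene did not pass the test, in the order minor/major gene.
Mcm8/Trmt6, chr2:132816056-132816140: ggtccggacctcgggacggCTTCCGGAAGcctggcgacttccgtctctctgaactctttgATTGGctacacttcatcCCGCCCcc
Znrd1as/Znrd1, chr17:36958560-36958591: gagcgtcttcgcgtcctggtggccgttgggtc
Oxld1/Ccdc137, chr11:120458069-120458114 (minus strand): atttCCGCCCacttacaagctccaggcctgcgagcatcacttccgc

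Next come 2 pairs in which the major gene fell instead. These were added to the set to print after their values were seen.
Slc38a6/Trmt5, chr12:73286712-73286778: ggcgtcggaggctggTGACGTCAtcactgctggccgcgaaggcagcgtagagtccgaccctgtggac
Ccdc163/Mmachc, chr4:116708407-116708508: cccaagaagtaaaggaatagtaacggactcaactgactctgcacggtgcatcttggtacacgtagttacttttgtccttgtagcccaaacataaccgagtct

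Last come the 2 protein-coding pairs of highest minor level in which neither gene had an unadjusted p under 0.05 for Setd1a.
Sept2/Hdlbp, chr1:93478816-93478963: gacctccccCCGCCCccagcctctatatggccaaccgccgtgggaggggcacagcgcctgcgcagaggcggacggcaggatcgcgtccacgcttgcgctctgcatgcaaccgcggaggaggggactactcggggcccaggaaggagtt
Pbrm1/Gnl3, chr14:31019090-31019137: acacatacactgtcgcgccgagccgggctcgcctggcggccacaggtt

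These stretches are between annotated genes and hold no exon of either partner. The 85 bases between Mcm8 and Trmt6 were 62.4% G or C with 7 CpG sites and held an ETS match, a CCAAT match and a GC box. The stretch between Slc38a6 and Trmt5 held a CRE match, and that between Ccdc163 and Mmachc, at 45.1% G or C, held none of the 8 motifs. A start stretch of this kind could be read for 525 of the 720 pairs.

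The start sites of a pair lay a median of 125 bp apart (quartiles 65.8 and 237 bp, range 1 to 989 bp). Minor genes had a median mean level of 14.2 CPM and major genes of 62.4 CPM, and the median ratio within a pair was 3.72 (quartiles 1.79 and 11.7). Both genes were protein-coding in 595 pairs, and 117 pairs had a minor gene of another kind, mostly a long non-coding RNA. Counted per kilobase of exon, the minor gene was still the lower one in 621 pairs. The minor gene had the lower group mean in all 18 groups in 524 pairs. Just inside the level limit lay 4933430I17Rik (1.017 CPM, paired with Pole3), and just outside it 9530085L11Rik (0.9987 CPM, paired with Tmco3). By distance, the mitochondrial pair mt-Ts1/mt-Atp6 was the longest inside at 989 bp and Sgsm2/Tsr1 the shortest outside at 1011 bp. There were 5 pairs on the mitochondrial genome, whose genes are cut from long shared transcripts and have no divergent promoter of this kind. Without a level limit, 1620 pairs would have met the distance rule.

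Averaged over 3 media, many minor genes fell in Setd1a knockout cells, and fewer major genes were called. Called lower means a Benjamini-Hochberg adjusted p under 0.05 over all 23501 genes in edgeR's quasi-likelihood test. For Setd1a, 160 of 717 minor genes (22.3%) and 74 of 714 major genes (10.4%) were lower, against 5.57% of all genes tested and 6.8% of genes in no such pair. Higher calls went to 19 minor and 25 major genes, against 3.29% of all genes. The median log2 fold change was -0.143 for minor and -0.060 for major genes. Shares of lists were not tested against each other. When the replicate numbers entered as a block, 230 minor and 148 major genes were lower, against 11.7% of all genes, and 67 and 91 were higher, below the 14.3% of all genes. Leaving out replicate 2 of Setd1a knockout in 2i moved the lower major genes to 49. Without replicate 1 of Setd1a knockout in EpiSC, the library of high fibroblast marker level, 144 minor and 55 major genes were lower and 16 major genes were higher. Without replicate 1 of Setd1a knockout in 2i, the library of the later run, 131 minor and 55 major genes were lower. The 19 higher minor genes became 6 to 9 without any 1 of 7 libraries: both wild-type and both knockout libraries of 2i, both genotypes' replicate 2 of FCS, and knockout EpiSC replicate 1.

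Bod1L knockout gave a like picture at lower counts. There, 83 minor genes (11.6%) and 22 major genes (3.08%) were lower, against 1.92% of all genes, while 0 minor and 3 major genes were higher, against 0.102%. At an unadjusted p under 0.05, 189 minor genes differed in either direction (1923 of all genes), and other fits called some minor genes higher: 4 in DESeq2 and 16 in the block fit, which called 2.11% of all genes higher. With the block, 140 minor and 54 major genes were lower, against 4.06% of all genes. The median log2 fold change was -0.068 for minor and 0.055 for major genes.

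Mll2 knockout called 1 minor gene lower and 1 higher, and no major gene in either direction, against 0.634% of all genes lower and 0.0596% higher. At an unadjusted p under 0.05 there were 48 minor and 33 major genes, of 1980 among all genes, and DESeq2 called 6 minor and 1 major genes lower and 2 of each higher. The block fit called 23 minor and 8 major genes lower, below the 4.83% of all genes, and 18 and 16 higher, against 2.37%. Without replicate 1 of Mll2 wild type in 2i, edgeR called 2 minor and 1 major genes lower and 6 major genes higher. Median log2 fold changes were -0.008 and 0.028.

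**Figure D1:**
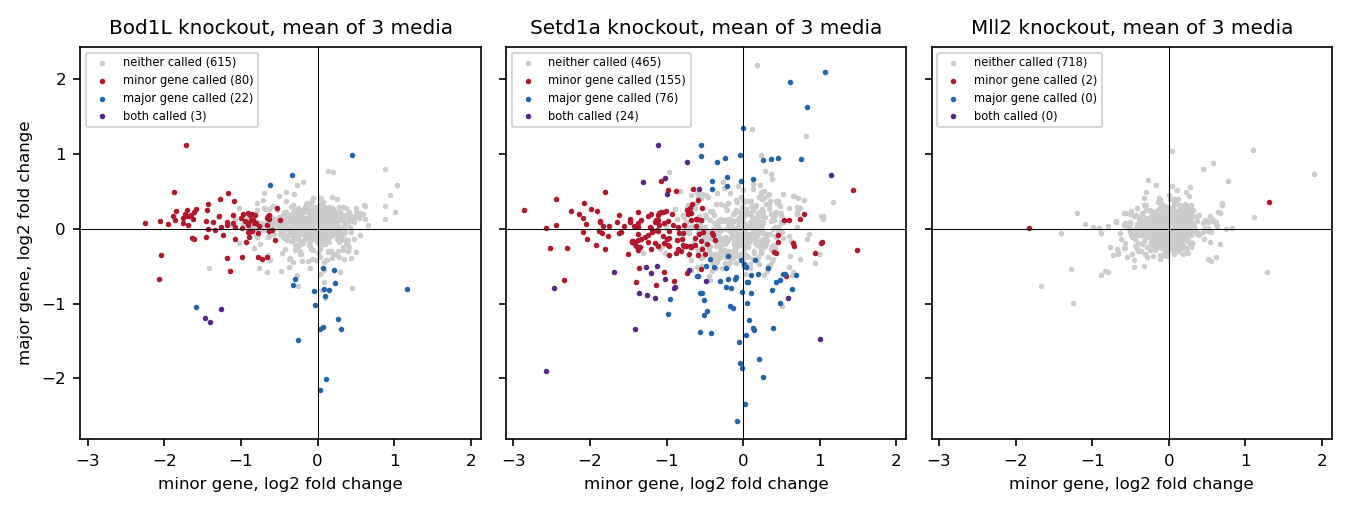
Log2 fold change of the major gene (vertical axis) against that of the minor gene (horizontal axis) for the 720 pairs, knockout against wild type averaged over 3 media, with 1 panel per line and colours for which gene was called in either direction. In the Setd1a and Bod1L panels most coloured points stretch left along the horizontal line, where the minor gene fell and the major gene lay near 0; the Mll2 panel has 2 coloured points.

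Calls of the 2 genes of a pair were counted together, and these counts were not set against the number that unrelated calls would give. In Setd1a knockout cells both genes were lower in 15 pairs, with 22.3% of all minor and 10.4% of all major genes lower. The minor gene was lower and the major gene not in 145 pairs, in 6 of which the major gene was higher. The major gene was lower and the minor gene not in 59 pairs, in 2 of which the minor gene was higher. Across the pairs with a lower minor gene, the median log2 fold change was -1.12 for the minor and -0.05 for the major gene, and 90 of the major genes lay below 0. Across pairs, the correlation of the 2 genes' log2 fold changes was r = 0.0658 for Setd1a, -0.00654 for Bod1L and 0.259 for Mll2 (n = 720 pairs, which share libraries). In wild-type cells the same correlation was 0.528 for EpiSC against 2i and 0.433 for FCS against 2i. Over all 16053 neighbouring pairs it was 0.124 for Setd1a, 0.101 for Bod1L and 0.0887 for Mll2. Between media it was 0.227 over all neighbours for EpiSC and 0.264 for FCS, each against 2i. For Bod1L, both genes were lower in 3 pairs, the minor gene and not the major in 80, and the major gene and not the minor in 19. With the block, both genes were lower in 44 pairs for Setd1a and 13 for Bod1L. For Setd1a the block also gave 186 pairs with the minor gene alone lower and 104 with the major gene alone lower, of which 25 and 16 had the partner higher.

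The direct test took the difference of the 2 genes' log2 levels in each library (0.5 CPM added), called the balance, and compared it between genotypes with limma. In Setd1a knockout cells the minor gene fell against its major gene in 156 of 720 pairs (21.7%) and rose against it in 72 (10.0%). Over all 16053 neighbouring pairs in any orientation, 7.82% fell and 8.30% rose. The shares that fell were 6.41% for tandem neighbours, 8.09% for tail-to-tail neighbours, 6.15% for head-to-head neighbours more than 1000 bp apart, and 15.6% for the 597 head-to-head neighbours whose starts overlap. Bod1L knockout moved the balance down in 92 pairs (12.8%) and up in 20 (2.78%), against 3.06% and 1.50% of all neighbours. Mll2 knockout moved it down in 2 pairs (0.278%) and up in 0, against 0.741% and 0.237%, with 42 pairs at an unadjusted p under 0.05 in either direction in limma. With the block, falls and rises were 221 and 122 for Setd1a, against 17.8% and 22.6% of all neighbours. They were 143 and 43 for Bod1L (7.29% and 5.57% of all neighbours), and 23 and 13 for Mll2 (9.05% and 5.07%). Without replicate 1 of Mll2 wild type in 2i, the Mll2 count was 17.

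**Figure D2:**
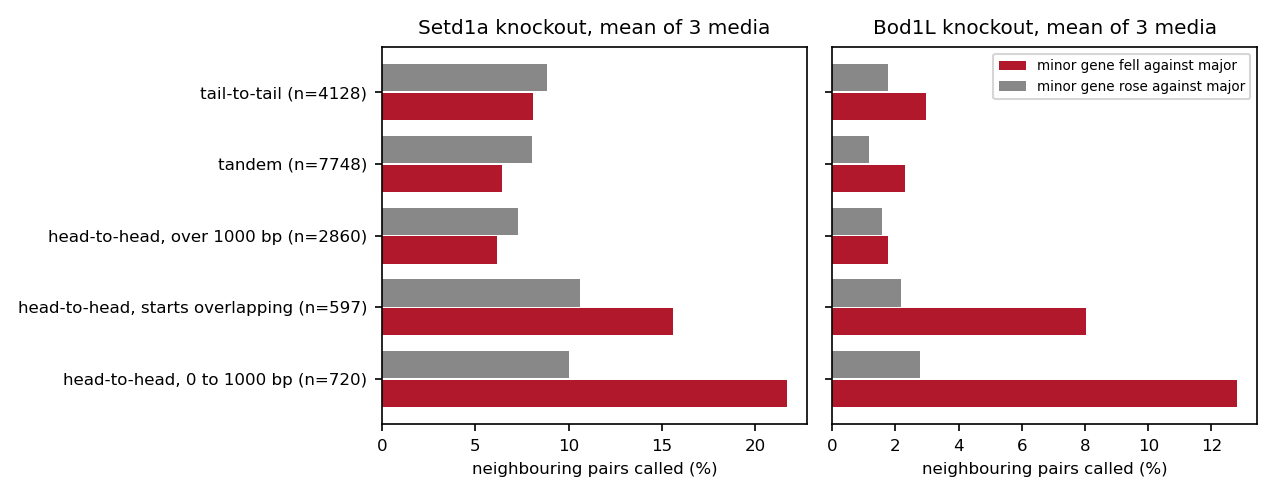
Share of neighbouring gene pairs (horizontal axis, percent) whose minor gene fell (red) or rose (grey) against its major gene in Setd1a and Bod1L knockout cells, averaged over 3 media, by orientation and distance of the pair. Red bars are longest for head-to-head pairs 0 to 1000 bp apart (21.7% and 12.8%) and next for those with overlapping starts (15.6% and 8.04%).

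Pairs were also counted library by library. A pair was counted as tilted when log2 minor over major lay more than 1 below the wild-type mean of its line and medium. Setd1a knockout libraries had 68 to 142 tilted pairs: 106 and 100 for the 2i replicates, 68 and 82 for FCS, 142 and 124 for EpiSC. Bod1L knockout libraries had 28 and 84 for 2i, 69 and 70 for FCS, then 91 and 106 for EpiSC. Mll2 knockout libraries had 28 and 37 for 2i, 3 and 14 for FCS, then 10 and 23 for EpiSC. Wild-type libraries had 0 to 4 outside Mll2 2i, where they had 18 and 14. The wild-type mean is that of 2 libraries, and a wild-type library is 1 of the 2 it was set against, which makes its own deviations smaller. Wild-type and knockout counts are thus not on a like footing, and such counts are not given for other neighbouring pairs.

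**Figure D3:**
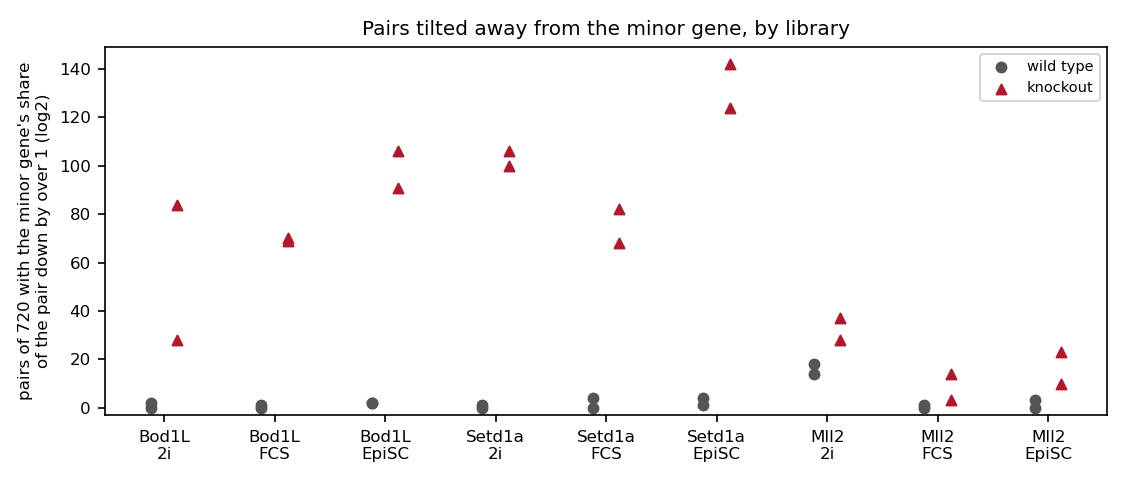
Number of the 720 pairs tilted away from the minor gene by over 1 on the log2 scale (vertical axis) in each of 36 libraries, by line and medium, with circles for wild type and triangles for knockout. All Bod1L and Setd1a knockout libraries, at 28 to 142 pairs, lie above all wild-type libraries, at 0 to 18. Mll2 knockout libraries, at 3 to 37, overlap both sets. Each wild-type library is part of the mean it was set against, so part of the gap to knockout libraries comes from the counting itself.

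Shares were also compared at like levels, since minor genes are the lower ones by their definition. Among protein-coding genes at a mean of 20 CPM or more, 24.8% of 278 minor genes, 9.46% of 624 major genes and 7.49% of 6770 genes in no such pair were lower in Setd1a knockout cells. Between 5 and 20 CPM the shares were 23.7% of 224, 17.8% of 73 and 9.98% of 3046. Between 1 and 5 CPM they were 17.0% of 100, 40.0% of only 5 (2 major genes) and 2.32% of 2374. For Bod1L, minor genes, major genes and genes in no such pair were lower at 11.9%, 2.88% and 1.83% in the highest class. The shares were 9.82%, 4.11% and 4.69% in the middle class, and 16.0%, 20.0% (1 of 5) and 1.22% in the lowest.

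**Figure D4:**
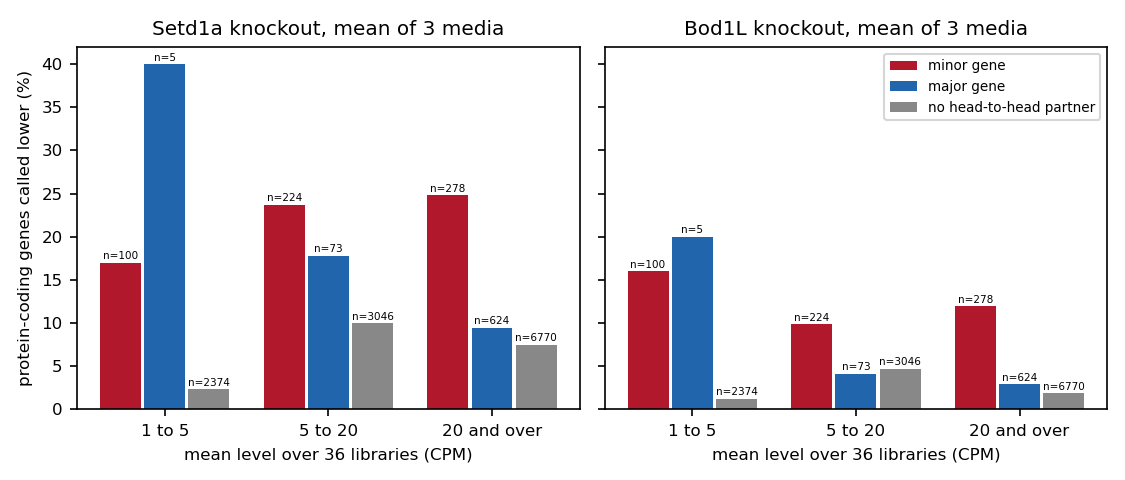
Share of protein-coding genes called lower (vertical axis, percent) by mean level over 36 libraries (horizontal axis, CPM) for minor genes, major genes and genes in no head-to-head pair, in Setd1a and Bod1L knockout cells; numbers above bars are genes in each class. Red bars exceed grey ones in every class. The bars of major genes are the highest in the lowest class, where these are only 5 genes.

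Knockout libraries enter the mean that names the minor gene, so names were also taken from other libraries. Named by the 24 libraries of the other 2 lines, 157 minor and 77 major genes were lower for Setd1a and 82 and 23 for Bod1L. Named by the 18 wild-type libraries, the counts were 150 and 84 for Setd1a and 77 and 28 for Bod1L, with 22 pairs changing names. Named per kilobase of exon, 153 and 81 were lower for Setd1a and 85 and 20 for Bod1L. The median difference between minor and major log2 fold changes for Setd1a was -0.113 as named here and -0.040 as named per kilobase.

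Closeness and level ratio were set beside the calls. For Setd1a, minor genes were lower in 22.2% of pairs with starts up to 100 bp apart, 25.0% of those up to 300 bp and 16.4% of those farther apart. Major genes were lower in 14.0%, 8.01% and 6.98% of these. Of all genes tested, 5.57% were lower, and 11.7% with the block. With the block, the shares by distance were 34.1%, 31.9% and 27.3% for minor and 22.3%, 20.9% and 16.3% for major genes. By ratio of major to minor level, minor genes were lower in 19.8% of pairs under 2, 25.6% from 2 to 5 and 21.7% over 5, and major genes in 11.8%, 11.2% and 8.67%. With the block, the shares by ratio were 33.5%, 35.3% and 28.8% for minor and 21.2%, 19.4% and 21.0% for major genes. Minor genes that were lower had a median span of 14.9 kb and a median distance of 118 bp to the partner, against 16.7 kb and 128 bp for the other minor genes.

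Non-coding minor genes, which include antisense and bidirectional promoter transcripts, were lower at 18.3% of 115 for Setd1a (median log2 fold change -0.300) and at 10.4% for Bod1L. Protein-coding minor genes were lower at 23.1% and 11.8%, and all genes at 5.57% and 1.92%. For Setd1a, 5 non-coding minor genes (4.35%) were higher, against 3.29% of all genes. The counting was strand-specific, so a non-coding transcript of this kind is counted apart from its partner. The long non-coding RNA 1700007L15Rik starts 48 bp from Zfp148, a zinc-finger transcription factor gene. It ran from 0.148 to 0.605 CPM in Setd1a knockout libraries and from 1.09 to 3.34 CPM in wild type, with no overlap. Its log2 fold change was -2.15 ± 0.282 (edgeR adjusted p = 1.59e-05), and that of Zfp148 was 0.193. Likewise 4930558J18Rik, 76 bp from 1700066M21Rik, ran from 0.570 to 1.51 CPM against 2.72 to 4.56 CPM (-1.99 ± 0.326, edgeR adjusted p = 2.40e-04).

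Mcm8, a helicase gene of homologous recombination, shares its start region with Trmt6, a subunit of the tRNA adenine methyltransferase. Mcm8 lay at 4.88 to 17.6 CPM (median 10.2) in 6 Setd1a knockout libraries and at 39.5 to 77.1 CPM (median 53.9) in 6 wild-type libraries. Trmt6 lay at 71.4 to 127 CPM (median 84.2) against 56.6 to 142 CPM (median 88.9). The knockout and wild-type ranges were apart for Mcm8 and overlapped for Trmt6. Mcm8's log2 fold change was -2.44 ± 0.185 (edgeR adjusted p = 6.47e-09) and that of Trmt6 was 0.05 ± 0.131 (adjusted p = 0.878). The share of the pair's counts held by Mcm8 went from 27.4 to 57.7% in wild type to 5.97 to 17.8% in knockout, and the balance fell by 2.46 ± 0.206 on the log2 scale (limma adjusted p = 3.02e-08). In Bod1L knockout cells, Mcm8 lay at 5.47 to 15.4 CPM against 24.9 to 43.4 CPM (-1.65 ± 0.179, edgeR adjusted p = 4.25e-06). In Mll2 cells its ranges of 33.1 to 55.1 and 35.1 to 58.5 CPM overlapped (-0.06 ± 0.174).

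Psmg2, a proteasome assembly chaperone gene, starts 263 bp from Cep76, a centrosomal protein gene. It ran from 4.92 to 10.9 CPM (median 6.70) in Setd1a knockout against 24.8 to 42.9 CPM (median 35.8), with no overlap (-2.24 ± 0.192, edgeR adjusted p = 3.55e-08). Cep76 ran from 32.1 to 53.5 CPM against 31.8 to 53.2 CPM. Psmg2 held 39.7 to 57.4% of the pair's counts in Setd1a wild type and 48.4 to 63.0% in Bod1L wild type. The 2 genes were thus near level in wild type, and knockout libraries enter the mean that names Psmg2 the minor gene. The antisense-strand gene Znrd1as, annotated as protein-coding, starts 33 bp from Znrd1, an RNA polymerase I subunit gene. It lay at 0.904 to 3.29 CPM (median 2.04) against 9.39 to 12.8 CPM (median 10.4), and its log2 fold change was -2.58 ± 0.280 (edgeR adjusted p = 1.05e-06) beside 0.01 ± 0.197 for Znrd1. Oxld1 ran from 0.157 to 0.575 CPM against 1.22 to 11.7 CPM, also apart, at -2.86 ± 0.387 (edgeR adjusted p = 2.39e-05), with Ccdc137 at 0.25 ± 0.212. Fam173b, now known as a mitochondrial lysine methyltransferase gene, starts 5 bp from Cct5, a chaperonin subunit gene. Fam173b lay at 0.992 to 3.88 CPM against 7.18 to 15.1 CPM, and Cct5 at 365 to 592 CPM against 545 to 656 CPM. Only Fam173b passed the test of these 2 (-2.30 ± 0.187, edgeR adjusted p = 1.78e-08, against -0.26 ± 0.130 and adjusted p = 0.233).

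In 6 pairs the minor gene was lower and the major gene higher. Cep290, a ciliary transition zone gene, lay at 16.7 to 25.6 CPM in Setd1a knockout against 36.9 to 65.8 CPM (-1.11 ± 0.161, edgeR adjusted p = 5.49e-05). Tmtc3, 939 bp away, lay at 143 to 299 CPM against 72.0 to 134 CPM (1.11 ± 0.233, edgeR adjusted p = 0.00303), so both genes had separate ranges in opposite directions. Lrrc14 and the RecQ helicase gene Recql4, 64 bp apart, moved by -1.31 ± 0.194 (edgeR adjusted p = 7.09e-05) and 0.62 ± 0.135 (adjusted p = 0.00437). The ranges of Lrrc14 were apart, and those of Recql4, 34.7 to 74.5 CPM against 25.5 to 54.0 CPM, overlapped.

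**Figure D5:**
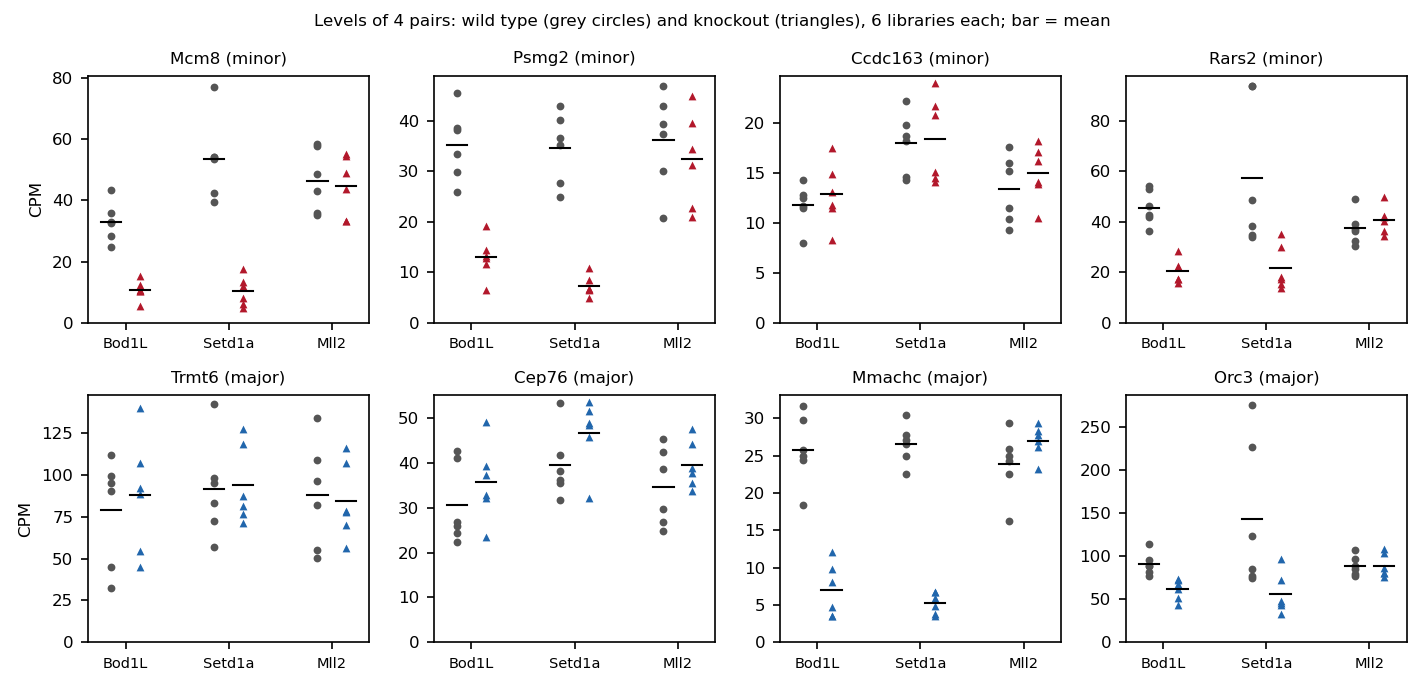
CPM (vertical axes) of 4 pairs, minor gene above and major gene below, in 6 wild-type (grey circles) and 6 knockout (triangles) libraries of each line, with bars at the mean. Mcm8 and Psmg2 are low in Setd1a knockout libraries while Trmt6 and Cep76 overlap wild type. Psmg2 and Cep76 are near level in wild type, and knockout libraries enter the mean that names the minor gene. In the third pair Mmachc, the major gene, is the low one. Rars2 and Orc3 are both low for Setd1a.

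The major gene was the one that fell in other pairs. Mmachc, a cobalamin-processing gene, lay at 3.49 to 6.77 CPM against 22.5 to 30.5 CPM for Setd1a (-2.35 ± 0.190, edgeR adjusted p = 1.78e-08), with no overlap, beside 0.02 ± 0.164 for Ccdc163. Ccdc163 held 69.1 to 84.7% of that pair in knockout and 37.0 to 42.2% in wild type. Ikbkg, the NEMO subunit of the IκB kinase, starts 18 bp from Fam3a and lay at 6.22 to 12.6 CPM against 20.1 to 40.0 CPM (-1.86 ± 0.172, edgeR adjusted p = 1.06e-07). Zdhhc6, a palmitoyltransferase gene 319 bp from Vti1a, lay at 7.68 to 15.7 CPM against 32.5 to 48.4 CPM (-1.98 ± 0.172, edgeR adjusted p = 4.10e-08). Trmt5, a tRNA methyltransferase gene, lay at 8.61 to 11.7 CPM against 20.1 to 35.1 CPM, while the amino acid transporter gene Slc38a6 lay at 17.9 to 48.8 CPM against 10.3 to 17.8 CPM. These 2 moved apart, at -1.47 ± 0.132 (edgeR adjusted p = 6.71e-08) and 1.01 ± 0.239 (adjusted p = 0.00891).

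For Bod1L, among the pairs whose balance moved furthest down was Rad9b/Vps29. Rad9b, a checkpoint clamp gene, lay at 1.81 to 4.71 CPM against 5.12 to 15.9 CPM (-1.95 ± 0.273, edgeR adjusted p = 8.50e-05). Cyb5rl, 120 bp from Mrpl37, lay at 0.971 to 3.00 CPM against 4.34 to 9.21 CPM (-1.86 ± 0.224, edgeR adjusted p = 1.37e-05). Both had separate ranges. The major gene Fancd2, of the Fanconi anaemia pathway, starts 30 bp from Emc3. It lay at 29.9 to 55.3 CPM against 77.5 to 130 CPM in the Bod1L line, with no overlap (-1.33 ± 0.149, edgeR adjusted p = 5.23e-06), and Emc3 changed by 0.31.

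Both genes fell in a few pairs. D3Ertd751e and Sclt1, a centriole appendage gene, start 97 bp apart and changed by -2.57 ± 0.228 and -1.90 ± 0.202 in Setd1a knockout cells (edgeR adjusted p = 5.42e-08 and 7.44e-07). Rars2, the mitochondrial arginyl-tRNA synthetase gene, and Orc3, an origin recognition subunit gene, start 13 bp apart. Rars2 lay at 13.8 to 35.2 CPM against 34.0 to 93.9 CPM (-1.42 ± 0.247, edgeR adjusted p = 4.89e-04) and Orc3 at 33.4 to 96.7 CPM against 75.1 to 275 CPM (-1.34 ± 0.260, adjusted p = 0.00146). Knockout and wild-type ranges overlapped for both genes, and the balance of this pair did not pass the test (-0.10 ± 0.124).

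Mll2 knockout moved the balance of 2 protein-coding pairs past the test, Extl2/Slc30a7 (-0.79 ± 0.170, limma adjusted p = 0.0199) and Fam57a/Vps53 (-0.76 ± 0.185, adjusted p = 0.0468). Extl2 lay at 1.62 to 25.2 CPM against 3.33 to 27.0 CPM and did not pass the gene test (edgeR adjusted p = 0.344, and 0.00129 with the block). Fam57a lay at 3.70 to 10.1 CPM against 5.33 to 17.6 CPM (edgeR adjusted p = 0.501, and 0.0149 with the block). Ranges overlapped for both genes. Leaving out 1 library ended the balance call of Extl2/Slc30a7 for 6 of 12 libraries and that of Fam57a/Vps53 for 11 of 12.

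In single media the counts of lower genes were smaller, with 4 libraries to a comparison. For Setd1a, 49 minor and 16 major genes were lower in 2i (1.44% of all genes), 33 and 13 in FCS (0.740%), then 58 and 25 in EpiSC (1.40%). With the block these were 141 and 76 (6.40% of all genes), 89 and 34 (2.56%), and 158 and 78 (5.67%). For Bod1L, 13 and 9 were lower in 2i (0.366% of all genes), 8 and 5 in FCS (0.191%), then 17 and 8 in EpiSC (0.430%), or 69 and 28 (1.80%), 51 and 18 (1.35%), and 71 and 21 (1.63%) with the block. For Mll2, 2 minor and 0 major genes were lower in 2i (0.430%), and 0 of either in FCS (0%) and EpiSC (0%). DESeq2 also called 0 in those 2 media, where 9 minor and 1 major genes in FCS and 19 and 12 in EpiSC had an unadjusted p under 0.05 in edgeR. With the block, 20 and 19 were lower in 2i (4.22% of all genes), 0 of either in FCS (0.791%), then 4 and 1 in EpiSC (1.57%). Without 1 of the 4 libraries, minor and major genes called in either direction ranged from 20 to 37 in 2i (from 72), 12 to 32 in FCS (from 47) and 26 to 89 in EpiSC (from 87) for Setd1a. For Bod1L they ranged from 3 to 17 (from 22), 1 to 4 (from 13) and 1 to 10 (from 25). For Mll2 in 2i the count went from 3 to 134 without wild-type replicate 1 and was 0 to 1 without any other. All 160 minor genes lower on average for Setd1a lay below 0 in each of the 3 media, and 23 of them passed the test in every medium. Those 23 include Mcm8, Psmg2, Fam173b, Palb2, Gen1, Recql, Gtf2h3, Harbi1, Cyb5rl and Rtn4ip1. Of the 74 lower major genes, 73 lay below 0 in all media and 12 passed in each, among them Mmachc, Ikbkg, Trmt5, Zdhhc6, Babam2, Parp2, Orc5 and Taf6. D3Ertd751e, Harbi1 and Senp8 were among the minor genes that passed in every medium for Bod1L. Genes lower on average were chosen by the mean of these same 3 media, which favours a value below 0 in each. Counts over the 3 media were not made for all genes, so they say nothing particular about pairs.

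Setd1a and Bod1L lines have wild-type libraries of their own, so their calls can be set side by side. Lower in both were 77 minor genes, which is 48.1% of the 160 for Setd1a and 92.8% of the 83 for Bod1L. For major genes 22 were shared, 29.7% of the Setd1a list and all of the Bod1L list. Over all genes tested 415 were shared, 31.7% and 91.8%. The 160 minor genes lower for Setd1a all lay below 0 for Bod1L, with a median of -0.734. Of the 1308 genes lower for Setd1a among all tested, 1252 lay below 0 for Bod1L, with a median of -0.495. For Mll2, 88 of the 160 and 827 of the 1308 lay below 0, with medians of -0.0281 and -0.0621. Across the 717 minor genes the log2 fold changes of the Setd1a and Bod1L lines correlated at r = 0.837. The value was 0.777 over major genes, 0.634 over genes of at least 1 CPM in no such pair and 0.464 over all genes tested. These values are a description, since the genes of a library are measured together.

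The difference between lines was tested as such. The Setd1a effect was lower than the Mll2 effect for 85 minor and 36 major genes, against 2.00% of all genes, and the Bod1L effect was lower than the Mll2 effect for 35 and 16, against 0.762%. Both differences use the same Mll2 libraries. As shares, these were 11.9% of minor and 5.04% of major genes for Setd1a and 4.88% and 2.24% for Bod1L. With the block they were 23.7% and 11.8% (6.36% of all genes), and 14.1% and 4.76% (2.62%). The Setd1a effect was lower than the Bod1L effect for 0 minor and 0 major genes in edgeR. Among all 23501 genes 0 were lower and 1 was higher. At an unadjusted p under 0.05, 61 minor and 46 major genes differed in either direction, of 1204 among all genes. DESeq2 called 4 and 2 lower (25 of all genes), and the block fit 8 and 7 (92 of all genes).

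DNA repair genes stood on both sides of the pairs. Of 147 tested genes of a DNA repair list, 23 were minor and 20 major. For Setd1a, 12 of 23 minor genes were lower and 1 higher (median log2 fold change -0.631), 8 of 20 major genes were lower and 1 higher (-0.239), and 34 of the other 104 were lower, against 5.57% of all genes lower and 3.29% higher. For Bod1L, 9 of 23, 5 of 20 and 18 of 104 (30 with the block) were lower, against 1.92% of all genes. For Mll2 none was lower in edgeR. With the block, 1 minor gene and 4 of the other 104 were lower for Mll2, against 4.83% of all genes. Rad51c, a homologous recombination gene, starts 111 bp from the germ cell gene Tex14. It lay at 3.77 to 9.13 CPM in Setd1a knockout against 17.7 to 41.4 CPM, with no overlap (-2.34 ± 0.323, edgeR adjusted p = 2.97e-05), and Tex14 changed by -0.69 ± 0.388 (adjusted p = 0.299, and 0.0104 with the block). Palb2, the partner of BRCA2, starts 56 bp from the dynactin gene Dctn5 and lay at 12.9 to 16.4 CPM against 29.9 to 45.3 CPM (-1.41 ± 0.114, edgeR adjusted p = 1.78e-08). Dctn5 changed by -0.20 ± 0.0986 (adjusted p = 0.214). Recql fell by 1.65 ± 0.194 (edgeR adjusted p = 3.51e-06) beside 0.09 for Golt1b. The resolvase gene Gen1 lay at 7.28 to 19.3 CPM against 18.9 to 40.7 CPM, which overlap (-1.33 ± 0.142, edgeR adjusted p = 8.16e-07). The clamp gene Rad1 fell by 1.05 ± 0.133 (adjusted p = 1.02e-05). Among major genes, Parp2 lay at 11.7 to 21.8 CPM against 37.4 to 50.5 CPM (-1.40 ± 0.126, edgeR adjusted p = 7.06e-08). Its partner Rpph1, the RNA of ribonuclease P, is made by RNA polymerase III and ran from 0.320 to 27.3 CPM over the 12 libraries.

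Mitochondrial translation supplied 11 minor and 13 major genes of 111 tested. For Setd1a, 6 of 11 minor genes (median -0.906), 4 of 13 major genes (-0.468, 8 with the block) and 34 of the other 87 were lower, against 5.57% of all genes, and none was higher. For Bod1L, 2, 1 and 11 were lower (3, 2 and 18 with the block), against 1.92% of all genes, and for Mll2 none was. With Rars2, the lower genes included Gfm2, a ribosome recycling factor gene 11 bp from Nsa2. Gfm2 lay at 20.3 to 39.5 CPM against 56.9 to 86.0 CPM, with no overlap, and fell by 1.20 ± 0.150 (edgeR adjusted p = 8.14e-06) beside 0.01 for Nsa2. Mrpl41, of the large mitochondrial ribosomal subunit, fell by 1.14 ± 0.199 (adjusted p = 4.89e-04), and Mrps27, of the small subunit, by 0.92 ± 0.155 (adjusted p = 3.45e-04).

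Several pairs known from textbooks as divergent were members. Brca1 and Nbr1, 194 bp apart, changed by -0.30 ± 0.174 (edgeR adjusted p = 0.308) and -0.30 ± 0.115 (adjusted p = 0.114, and 0.0376 with the block) for Setd1a. Npat and Atm, 307 bp apart, changed by 0.17 ± 0.115 and -0.01 ± 0.214. Neither gene of these 2 pairs passed the unblocked test. Prkdc, of end joining, starts 466 bp from the replicative helicase gene Mcm4. It lay at 52.9 to 78.5 CPM against 88.2 to 125 CPM for Setd1a (-0.81 ± 0.206, edgeR adjusted p = 0.0141), a call that ended without Setd1a knockout 2i replicate 2, FCS replicate 2 or EpiSC replicate 1. For Bod1L it fell by 1.23 ± 0.208 (adjusted p = 7.69e-04). Sars2, a mitochondrial seryl-tRNA synthetase gene 172 bp from Mrps12, fell by 0.91 ± 0.145 (edgeR adjusted p = 1.79e-04), and Mrps12 changed by -0.69 ± 0.235 (adjusted p = 0.0689, and 0.00926 with the block). The BRCA1 complex gene Babam2, 57 bp from Rbks, fell by 1.38 ± 0.146 for Setd1a (adjusted p = 6.97e-07) and by 1.24 ± 0.145 for Bod1L (adjusted p = 8.72e-06). Rbks, at a mean of 1.44 CPM, was also called lower for Bod1L, a call that ended when some single libraries were left out. The balance of this pair did not pass the test for Bod1L (0.396 ± 0.262, limma adjusted p = 0.700). Other textbook pairs, such as Hspd1/Hspe1, Ppat/Paics and Surf1/Surf2, have overlapping annotated starts and were not members.

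Promoter windows from 250 bases before to 50 after the start were found for 125 of the 139 protein-coding minor genes that were lower for Setd1a, for 375 of the other 463 and for 578 of 702 protein-coding major genes. ETS matches stood in 32.8%, 30.7% and 31.1% of these windows, GC boxes in 72.8%, 70.1% and 71.3%, CCAAT matches in 48.8%, 39.5% and 45.5%, and TATA box matches in 0.800%, 3.73% and 4.15%. Among all 32851 RefSeq windows of that length the shares were 8.86%, 35.7%, 37.4% and 13.6%. The windows of protein-coding genes of at least 1 CPM in no such pair lay nearer to the members, at 16.4%, 64.8%, 38.6% and 7.36%, and those of them lower for Setd1a at 28.7%, 63.3%, 37.8% and 5.34%. Median G and C content was 62.3% with 25 CpG sites in the windows of lower minor genes, 61.0% with 20 for genes in no such pair and 52.7% with 7 in all windows. The 2 windows of a pair overlap and share matches where their starts are close.

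Both kinds of gene changed between media in wild-type cells. In EpiSC against 2i, 163 minor and 246 major genes were lower (27.4% of all genes) and 199 and 102 were higher (25.1%). In FCS against 2i, 14.4% of minor and 14.1% of major genes were lower (14.5% of all genes) and 62 and 50 were higher (13.3%). Non-coding minor genes were higher in EpiSC in 52 of 115 cases (45.2%) and lower in 14, while protein-coding minor genes were higher in 147 and lower in 149 of 602. Both genes of a pair were lower in 85 pairs and both higher in 52 in EpiSC, and in FCS these were 35 and 13. Medium, cell type and sequencing run cannot be told apart in EpiSC. The minor gene had the higher mean in 33 pairs in 2i, 37 in FCS and 48 in EpiSC, of which 42 were higher in EpiSC and not in 2i.

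The following pairs were chosen after their values were seen. Spry4, an FGF signalling inhibitor gene 266 bp from Arhgap26, lay at 0.0697 to 6.69 CPM in 6 wild-type 2i libraries. It lay at 85.9 to 204 CPM in FCS and at 16.6 to 133 CPM in EpiSC, with no overlap with 2i. Arhgap26 lay between 4.20 and 13.7 CPM in the 3 media and was higher in EpiSC than in 2i (0.523 ± 0.197, edgeR adjusted p = 0.0299). Tex14, the major gene beside Rad51c, lay at 26.5 to 104 CPM in 2i and at 0.174 to 34.9 CPM (median 0.651) in EpiSC, and was lower there (-4.92 ± 0.478, edgeR adjusted p = 2.46e-08). Grik5, a kainate receptor subunit gene 221 bp from Zfp574, moved the balance up by 3.31 ± 0.298 in EpiSC. Zfp574 lay at 23.2 to 37.5 CPM in 2i and 23.9 to 28.5 CPM in EpiSC, and was lower in EpiSC (-0.320 ± 0.123, edgeR adjusted p = 0.0328).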

How the data were processed

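Strand-specific single-end RNA-seq reads were turned into counts per gene by the authors with featureCounts 1.5.2 (strand setting 2, primary alignments, minimum mapping quality 1, Ensembl release 87), per the file headers. GSNAP and the build GRCm38 (mm10) are named in the submitters' processing notes. Spike-ins (92, all at 0 counts) were removed. Symbols came from GENCODE by Ensembl identifier, and 1 member had no entry.

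Counts were fitted with edgeR 4.0.16 (quasi-likelihood tests, TMM, 18 groups, 18 residual degrees of freedom, low genes removed by filterByExpr at 10 counts), with Benjamini-Hochberg adjustment over 23501 genes. Averages weighed the 3 media equally. Pair balances, as log2 (CPM + 0.5), were fitted with limma 3.58.1 over 16053 neighbouring pairs. Fits were tested on simulated data. DESeq2 1.42.0 and a replicate block were alternatives. The labels state no pairing. Same-numbered knockout and wild-type libraries deviated together over 23501 genes (in the order 2i, FCS, EpiSC, r = 0.804, 0.672 and 0.812 for Bod1L, 0.293, 0.301 and 0.768 for Setd1a, and 0.454, 0.683 and 0.667 for Mll2), so block values are given beside the main counts.

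Members, lists and motifs were chosen with earlier results of these data known. Named pairs were those with the most extreme balances, pairs in which both or only the major gene fell, list members called with the lowest adjusted p, textbook pairs and pairs at the limits. Sequences came from RefSeq windows (GRCm38.p6). Some members are counted in the totals and not reported here by name.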

Additional observations from a re-analysis of the deposited data

Results flagged for a closer look

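Among the 6 Setd1a knockout libraries, EpiSC replicate 2 had a median balance of minor against major genes of -0.194 relative to wild type, far from the other 5, which lay between -0.115 and -0.078. Chance alone sets apart about 1 in 20 such groups.

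The knockout effect was lower for Setd1a than for Mll2 in 85 minor and 36 major genes, and lower for Bod1L than for Mll2 in 35 minor and 16 major genes, by the edgeR test of the difference itself. Both tests use the same 12 Mll2 libraries, in which the 2 wild-type libraries of 2i stood apart from each other.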

How the results depend on the processing

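Of 841 alternative values for counts and medians, 704 moved by less than 1.5 times the count or 1 SD and 137 moved further. The median difference between minor and major log2 fold changes for Mll2 in 2i changed sign under 2 alternatives, to 0.083 with minor genes named per kilobase and to 0.008 without Mll2 wild-type 2i replicate 2. Of 149 calls of named genes and pairs, 126 stayed past the threshold under every alternative run for them, and all 149 did so with the block. Some alternatives, including those for line differences and media and the pseudocount of 0.1 CPM, were chosen after seeing the data. Depth limits the lowest genes: near 1 CPM a library holds few counts. The cause of the moves was not tested.

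With the replicate block, counts rose. For Bod1L, lower and higher minor genes became 140 and 16 (from 83 and 0), major genes 54 and 14 (from 22 and 3), and pairs whose minor gene fell 143 (from 92). For Setd1a, 67 minor genes were higher (from 19), and major genes stood at 148 lower and 91 higher (from 74 and 25). For Mll2, minor genes stood at 23 and 18 (from 1 and 1), major genes at 8 and 16 (from 0 and 0) and pairs that fell at 23 (from 2). Minor and major genes called in 2i, FCS and EpiSC became 100, 70 and 102 for Bod1L (from 22, 13 and 25), 273, 129 and 298 for Setd1a (from 72, 47 and 87), and 72, 1 and 11 for Mll2 (from 3, 0 and 0). For the differences from Mll2, lower minor and major shares became 23.7% and 11.8% for Setd1a (from 11.9% and 5.04%) and 14.1% and 4.76% for Bod1L (from 4.88% and 2.24%).

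DESeq2 gave 4 higher minor and 9 higher major genes for Bod1L, 44 and 55 for Setd1a, and for Mll2 6 lower and 2 higher minor and 1 lower and 2 higher major genes. It called 43, 39 and 61 genes in 2i, FCS and EpiSC for Bod1L, 122, 82 and 155 for Setd1a, 11 in 2i for Mll2, and 8.37% of minor genes in the Bod1L difference from Mll2.

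Without the filter on low counts, genes called were 13 in 2i and 15 in EpiSC for Bod1L, 31 in FCS for Setd1a, and 16 in 2i and 1 in EpiSC for Mll2. Higher minor genes for Setd1a were 11. For Mll2, 5 minor genes were lower and 4 major genes higher. The Bod1L difference from Mll2 took 2.93% of minor and 1.40% of major genes, and 8.65% of minor genes were lower in wild-type FCS (from 14.4%).

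At 5 CPM, 55 minor genes were lower and 1 major gene higher for Bod1L, 16 major genes were higher for Setd1a, and Mll2 had 0 lower and 0 higher minor genes and 1 called in 2i. Within 300 bp, Mll2 had 0 lower and 0 higher minor genes and 1 called in 2i. In protein-coding pairs 1 major gene was higher for Bod1L.

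With minor genes named per kilobase, the median difference between minor and major log2 fold changes for Setd1a was -0.040 on average (from -0.113), -0.047 in 2i (from -0.134) and -0.094 in EpiSC (from -0.176), and 0.083 for Mll2 in 2i (from -0.023). Named by wild-type libraries it was -0.071 for Setd1a in 2i.

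Leaving out 1 library in turn used the 12 libraries of a line, or the 4 of a medium. For Setd1a, lower and higher minor genes ranged from 131 to 168 and 6 to 22, major genes from 49 to 94 and 16 to 35, and falls from 126 to 158. For Bod1L these ranges were 58 to 80, 0 to 1, 18 to 24, 1 to 4 and 68 to 94. For Mll2 they were 0 to 2, 0 to 2, 0 to 1, 0 to 6 and 0 to 17. The median difference ranged from -0.137 to -0.093, from -0.152 to -0.086 and from -0.056 to -0.034 for Setd1a, Bod1L and Mll2. Genes called in 2i, FCS and EpiSC ranged from 20 to 37, 12 to 32 and 26 to 89 for Setd1a, from 3 to 17, 1 to 4 and 1 to 10 for Bod1L, and from 0 to 134, 0 to 0 and 0 to 0 for Mll2, with 134 without Mll2 wild-type 2i replicate 1. Medians in 2i, FCS and EpiSC ranged from -0.136 to -0.097, -0.188 to -0.046 and -0.216 to -0.131 for Setd1a, from -0.145 to -0.065, -0.183 to -0.105 and -0.24 to -0.092 for Bod1L, and from -0.071 to 0.008, -0.048 to -0.027 and -0.09 to -0.051 for Mll2. It was not run for line differences or media.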
